A study of Mus musculus with 6 samples.

Results

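The genes of fatty acid synthesis, desaturation and elongation were followed in lung group 2 innate lymphoid cells (ILC2s) that carried or lacked a floxed Piezo1 allele. They are 10 genes chosen by name, all present among the 18057 genes of the deposited table: Fasn and Acaca (synthesis), Srebf1 (their transcription factor), Scd1, Scd2, Fads1 and Fads2 (desaturation), and Elovl1, Elovl5 and Elovl6 (elongation). The names were proposed with the Piezo1 KO against WT values of these genes already known. Their levels and differences are therefore given as a description, and no test of them is offered as support.

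ILC2s are tissue-resident lymphocytes that make type 2 cytokines when alarmins such as IL-33 reach them, and Piezo1 encodes a mechanically gated cation channel. The Piezo1 KO libraries have the genotype Il7rcrePiezo1flx, that is, Cre recombinase under the Il7r gene with floxed Piezo1, and the libraries titled WT have the genotype Il7rcre, which names no floxed allele. In both groups, mice were given IL-33 into the nose 3 times at a dose of 1 µg, and the sorted cells then spent 24 h in culture with 10 ng/mL of IL-2 and 10 ng/mL of IL-7. Each group had 3 libraries, made from 10 ng of RNA. The sources used here do not give age, strain background or whether the replicates were separate animals, so p-values measure the spread between libraries only, and that spread may be technical. The Cre driver follows Il7r, a gene that other lymphoid cells also use, so it is not specific to ILC2s.

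Library totals lay between 23549849 and 29733378 estimated counts in Piezo1 KO and between 13059046 and 33459904 in WT. Piezo1 itself, the check of the labels, was at 150.04, 109 and 122 CPM (counts scaled to library size, with TMM factors) in Piezo1 KO, against 247, 278 and 160.03 CPM in WT, with no overlap and without passing an adjusted p of 0.05 (adjusted p = 0.112 by the quasi-likelihood test of edgeR, Benjamini-Hochberg over all tested genes). Its log2 fold change was -0.85 ± 0.21, and it passed in DESeq2 (adjusted p = 0.00193), in limma-voom (0.0157) and without WT replicate 3 (edgeR, 0.0163), and in none of the other 9 alternative fits, where the adjusted p was 0.105 to 0.464. A count over the whole gene also takes in exons outside a floxed stretch. All 12 ILC2 markers looked for were present, and their summed level was 13720 to 14674 CPM in Piezo1 KO and 11889 to 12770 CPM in WT. The markers did not all move one way. Most of the higher sum came from Il5, Il2ra and Id2, which did not pass, while Icos was called lower (log2 fold change -0.61 ± 0.09, edgeR adjusted p = 0.0168), and Gata3 and Rora were lower without overlap and without passing (-0.42 and -0.26). Their part in the fatty acid gene values was not tested.

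Cells build long fatty acids in the cytosol from acetyl-CoA. Acetyl-CoA carboxylase makes malonyl-CoA, fatty acid synthase joins these units into palmitate, elongases lengthen the chain in the endoplasmic reticulum, and desaturases put in double bonds. The stearoyl-CoA desaturases make oleate-type monounsaturated acids, while the Fads enzymes act in turn on the polyunsaturated acids that come from the diet. SREBP-1, the product of Srebf1, is held in the endoplasmic reticulum by Scap and the Insig proteins when sterols are plentiful, and switches on many of these genes when it is released. Proliferating lymphocytes are known to use the pathway for membranes.

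Of the 7 desaturase and elongase genes, 4 stood apart between the groups, and the other 3 lay near 0 with the genes of synthesis. Scd1, Fads2, Scd2 and Elovl6 were higher in every Piezo1 KO library than in any WT library, with log2 fold changes (Piezo1 KO over WT, ± SE from the fit) of 1.99 ± 0.15, 1.36 ± 0.16, 1.05 ± 0.14 and 0.71 ± 0.12. Fasn, Acaca, Srebf1, Fads1, Elovl1 and Elovl5 had log2 fold changes between -0.05 and 0.19, and their groups overlapped. The 4 genes without overlap passed an adjusted p of 0.05 in the fit across all 14149 genes tested (edgeR), in which 1.51% of genes were called in either direction, 1% as higher and 0.509% as lower. None of the 10 was called lower (0 also at an unadjusted p under 0.05, in DESeq2 and in limma-voom). Because the genes were chosen on this contrast, nothing is read from the difference between these shares. The count of 4 was 1 without Piezo1 KO replicate 1, without Piezo1 KO replicate 2 or without WT replicate 1, where Scd1 alone was called, and 2 without Piezo1 KO replicate 3. Over all genes, the calls in these fits were 35, 33, 34 and 53, in the same order, against 214 with all 6 libraries. The median log2 fold change of the 10 genes was 0.16, beside 0.02 for all genes tested. The groups did not overlap in 4 of the 10 genes, where 20.6% of all tested genes showed no overlap.

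**Figure D1:**
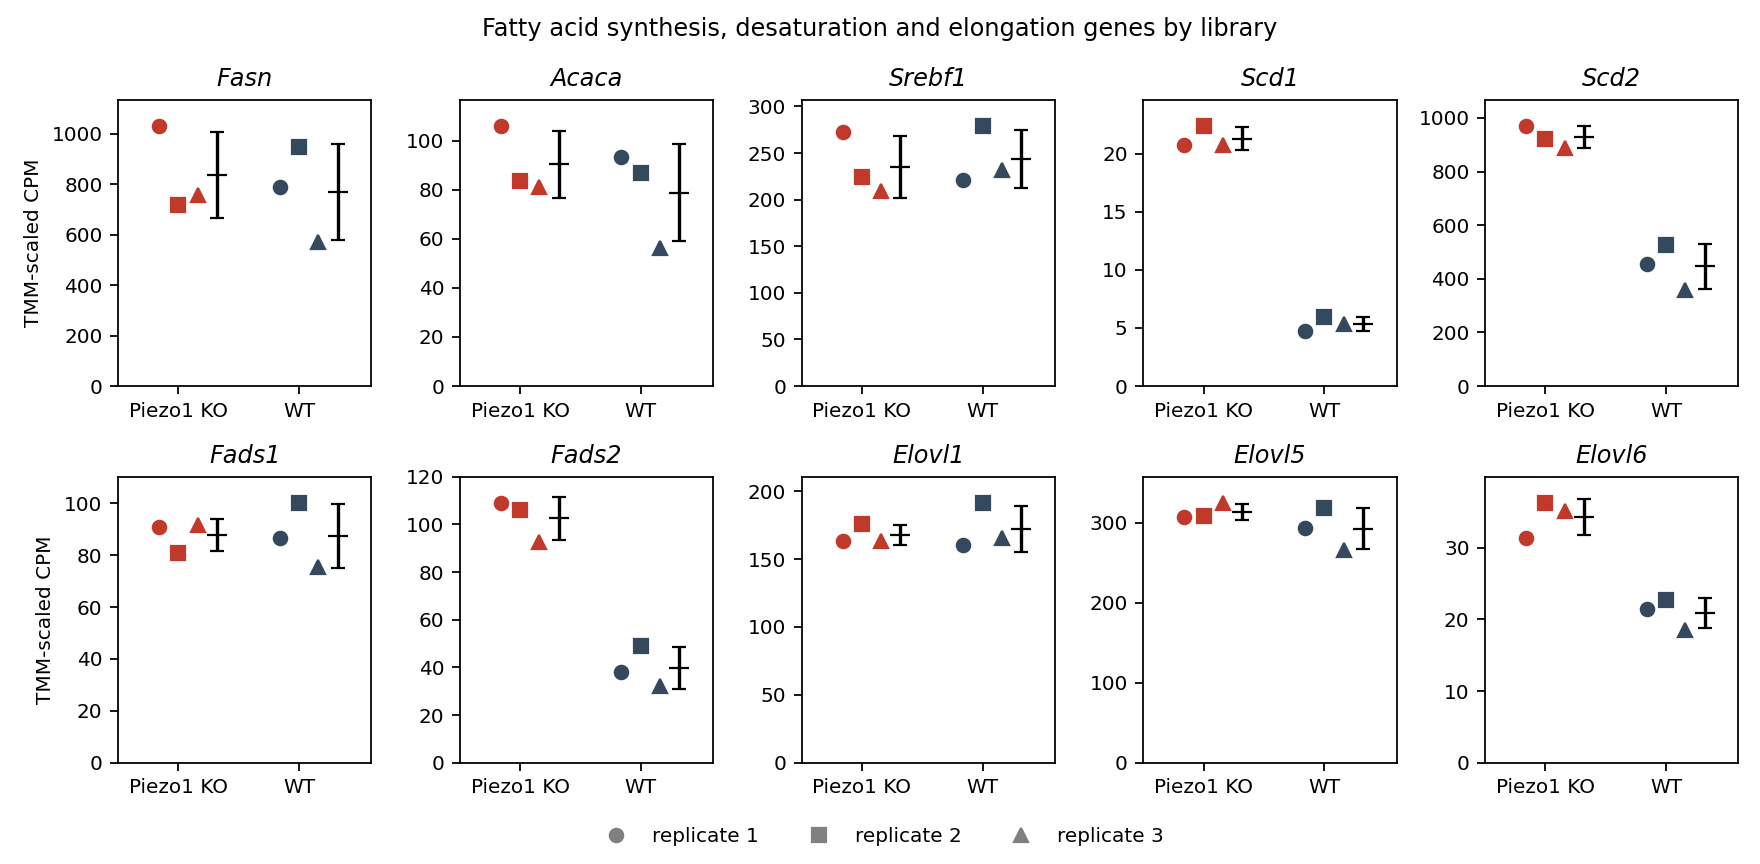
TMM-scaled CPM (vertical axis, starting at 0) of the 10 genes in each library, with Piezo1 KO left of WT; each symbol is a library and the bar gives the mean ± SD of 3 libraries. Scd1, Scd2, Fads2 and Elovl6 lie higher in all Piezo1 KO libraries than in all WT libraries, while the other genes overlap.

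The genes that make palmitate, the first long product of the pathway, had the largest errors of the 10. Fasn, fatty acid synthase, was at 1031, 716 and 758 CPM in Piezo1 KO replicates 1, 2 and 3, against 788, 949 and 569.8 CPM in WT replicates 1, 2 and 3. The highest value was in Piezo1 KO replicate 1 and the lowest in WT replicate 3, so the groups overlapped, although the other Piezo1 KO libraries lay below the other WT libraries. Its mean was 835 ± 171 CPM in Piezo1 KO and 769 ± 190.2 CPM in WT (SD, n = 3 each), a log2 fold change of 0.12 ± 0.20 that is smaller than its error. Acaca, which encodes acetyl-CoA carboxylase alpha, the supplier of malonyl-CoA, was at 106, 83.7 and 81.2 CPM in Piezo1 KO, against 93.3, 86.7 and 56.2 CPM in WT. As for Fasn, Piezo1 KO replicate 1 was highest and WT replicate 3 lowest, and the groups overlapped (log2 fold change 0.19 ± 0.19). Of the 83 other genes of the pathway lists and the set itself that were compared by their profile over the 6 libraries, Acaca was the closest to Fasn and Fasn the closest to Acaca. Their centred log2 CPM differed by 0.13 (root mean square over the 6 libraries).

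Srebf1, whose product SREBP-1 drives this gene programme, was at 272, 224 and 209 CPM in Piezo1 KO, against 221, 279 and 232 CPM in WT. The highest library was WT replicate 2 and the lowest Piezo1 KO replicate 3. The means were 235 ± 32.98 CPM in Piezo1 KO and 244 ± 31.1 CPM in WT (SD, n = 3 each), a log2 fold change of -0.05 ± 0.13. Fasn (120805846 to 120824547, minus strand), Acaca (84129672 to 84401651, plus strand) and Srebf1 (60199089 to 60222581, minus strand) all lie on chromosome 11 in mm10, far apart. A gene-level count cannot separate the transcript forms of Srebf1, nor does it measure the cleaved, active protein.

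The stearoyl-CoA desaturases were both higher in Piezo1 KO, at very different levels. Scd1 was at 20.7, 22.4 and 20.8 CPM in Piezo1 KO, against 4.73, 5.97 and 5.32 CPM in WT. The lowest Piezo1 KO library stood well above the highest WT library, and the spread within each group was small, with means of 21.3 ± 0.95 CPM in Piezo1 KO and 5.34 ± 0.62 CPM in WT (SD, n = 3 each), a 3.97-fold difference. Scd2, the form that is widely expressed outside liver and fat, was at 971, 922 and 889 CPM in Piezo1 KO, against 455, 527 and 358 CPM in WT. Its means were 927 ± 41.2 CPM in Piezo1 KO and 447 ± 84.9 CPM in WT (SD, n = 3 each), a 2.08-fold difference, again without overlap. Scd2 thus carried nearly all the counts of the pair: Scd1 made up 2.09%, 2.37% and 2.28% of them in Piezo1 KO, against 1.03%, 1.12% and 1.47% in WT.

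Both lie on chromosome 19 in mm10, Scd1 at 44394455 to 44407879 on the minus strand and Scd2 at 44293674 to 44306864 on the plus strand, 87.6 kb apart, with Scd4 as the only coding gene between them. The annotated coding transcripts share few stretches, since 145 of the 4841 distinct 50-base words of Scd1 also occur in Scd2, or 3% of them. The same words are 2.68% of those of Scd2, whose level was far higher. Reads from these stretches can be divided between the genes by the authors' counting. The deposited Scd1 values were not whole in all 6 libraries. How much of the level of the much rarer Scd1, and of its difference between the groups, came from reads of Scd2 was not measured. Scd4 itself had 6, 2 and 3 counts in Piezo1 KO, against 0, 0 and 0 counts in WT, and was too low to be tested. Set against a floor of 3 counts over the WT group, the 11 counts over the Piezo1 KO group were 3.22-fold higher after scaling. That ratio leaves out counting error in Piezo1 KO and the spread between libraries. Words that Scd4 shares with Scd1 or Scd2 were not counted. Scd3 was not among the genes of the deposited table and so was not analysed.

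The front-end desaturases that act on polyunsaturated acids behaved differently from each other. Fads2, which encodes the enzyme of the first step, was at 109, 106 and 92.4 CPM in Piezo1 KO, against 37.9, 49.2 and 32.2 CPM in WT. All Piezo1 KO libraries lay above all WT libraries, with means of 102 ± 8.85 CPM in Piezo1 KO and 39.8 ± 8.66 CPM in WT (SD, n = 3 each), a 2.57-fold difference. Fads1, which encodes the enzyme of the later step towards arachidonic acid, was at 91.0, 80.6 and 91.4 CPM in Piezo1 KO, against 86.6, 100.2 and 75.5 CPM in WT. The highest and the lowest library were both WT, and the log2 fold change was 0.00 ± 0.12. Per length of exon, Fads2 was at 1.36, 1.49 and 1.15 times the level of Fads1 in the Piezo1 KO libraries, against 0.498, 0.557 and 0.484 times in the WT libraries. The order of the pair was therefore opposite in every library of the 2 groups. The genes stand head to head on chromosome 19 in mm10, Fads1 at 10182888 to 10196877 on the plus strand and Fads2 at 10062765 to 10101746 on the minus strand. Their starts are 81.1 kb apart with no other coding gene between them, and their coding transcripts share 0 words of 50 bases.

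**Figure D2:**
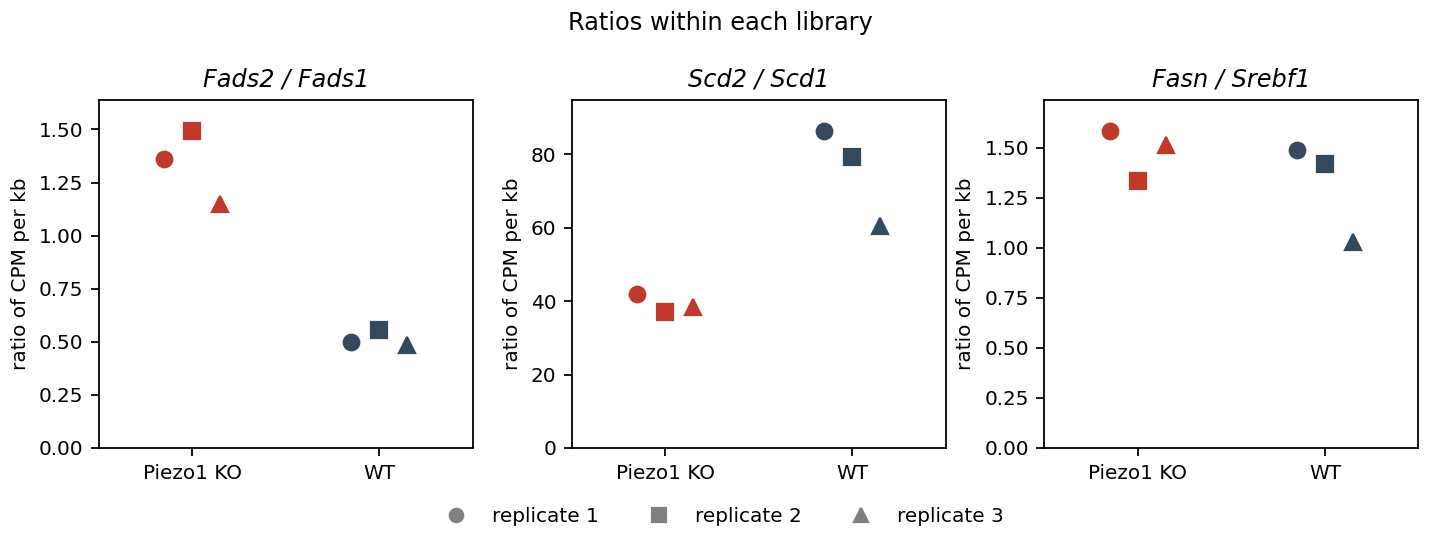
Ratio of 2 genes' CPM per kb of exon (vertical axes, starting at 0) within each library, Piezo1 KO left of WT, each symbol a library. Fads2 over Fads1 lies between 1.15 and 1.49 in Piezo1 KO and between 0.484 and 0.557 in WT, Scd2 over Scd1 between 36.9 and 42.0 in Piezo1 KO and between 60.3 and 86.2 in WT, while Fasn over Srebf1 overlaps.

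Among the elongases, 1 of 3 was called. Elovl6, which lengthens palmitate to stearate, the substrate of the stearoyl-CoA desaturases, was at 31.4, 36.3 and 35.1 CPM in Piezo1 KO, against 21.4, 22.7 and 18.5 CPM in WT. The groups did not overlap, and the means were 34.2 ± 2.54 CPM in Piezo1 KO and 20.9 ± 2.13 CPM in WT (SD, n = 3 each), a 1.64-fold difference and the smallest of the 4 called. Its call was lost with the replicate number as a block and in 4 of the 6 fits that left out a library. Elovl5, the elongase of polyunsaturated acids that works between the Fads2 and Fads1 steps, was at 308, 308 and 325 CPM in Piezo1 KO, against 294, 318 and 266 CPM in WT, a log2 fold change of 0.10 ± 0.09. Elovl1, which extends very long saturated acids for sphingolipids, was at 163, 176 and 163 CPM in Piezo1 KO, against 160.1, 192 and 165 CPM in WT, a log2 fold change of -0.04 ± 0.10. Both of these elongases overlapped between the groups. In mm10, Elovl6 lies on chromosome 3 at 129532355 to 129638495, Elovl5 on chromosome 9 at 77917364 to 77984519 and Elovl1 on chromosome 4 at 118428093 to 118432953, all on the plus strand. Elovl1 shares 2.73% of its exon length with Cdc20 on the opposite strand, and the sources used here do not say whether the counting used strand.

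Set side by side per length of exon, the levels took a different order in the 2 groups. In Piezo1 KO, Scd2 was highest at 169.98 ± 7.56 CPM per kb, followed by Elovl5 (104.7 ± 3.35), Elovl1 (86.3 ± 3.83), Fasn (78.8 ± 16.1) and Srebf1 (53.1 ± 7.45 CPM per kb; SD, n = 3 each). Of these, only Elovl1 and Fasn overlapped as neighbours. In WT, Elovl5 led at 97.7 ± 8.69 CPM per kb, followed by Elovl1 (88.8 ± 8.69), Scd2 (81.9 ± 15.6), Fasn (72.5 ± 17.9) and Srebf1 (55.1 ± 7.03 CPM per kb), and each of these overlapped with its neighbour in the order. The lower genes were separate from one another in each group. In Piezo1 KO the order went on with Fads2 (32.2 ± 2.78), Fads1 (24.2 ± 1.69), Acaca (8.92 ± 1.35), Elovl6 (5.33 ± 0.39) and Scd1 (4.35 ± 0.20 CPM per kb). In WT it went on with Fads1 (24.2 ± 3.43), Fads2 (12.5 ± 2.72), Acaca (7.78 ± 1.95), Elovl6 (3.24 ± 0.33) and Scd1 (1.09 ± 0.13 CPM per kb). Scd2 stood at the top in Piezo1 KO, against a place among the other abundant genes in WT, and Fads1 and Fads2 changed places. The lengths are those of all annotated coding exons, so a gene whose cells use shorter forms is understated.

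**Figure D3:**
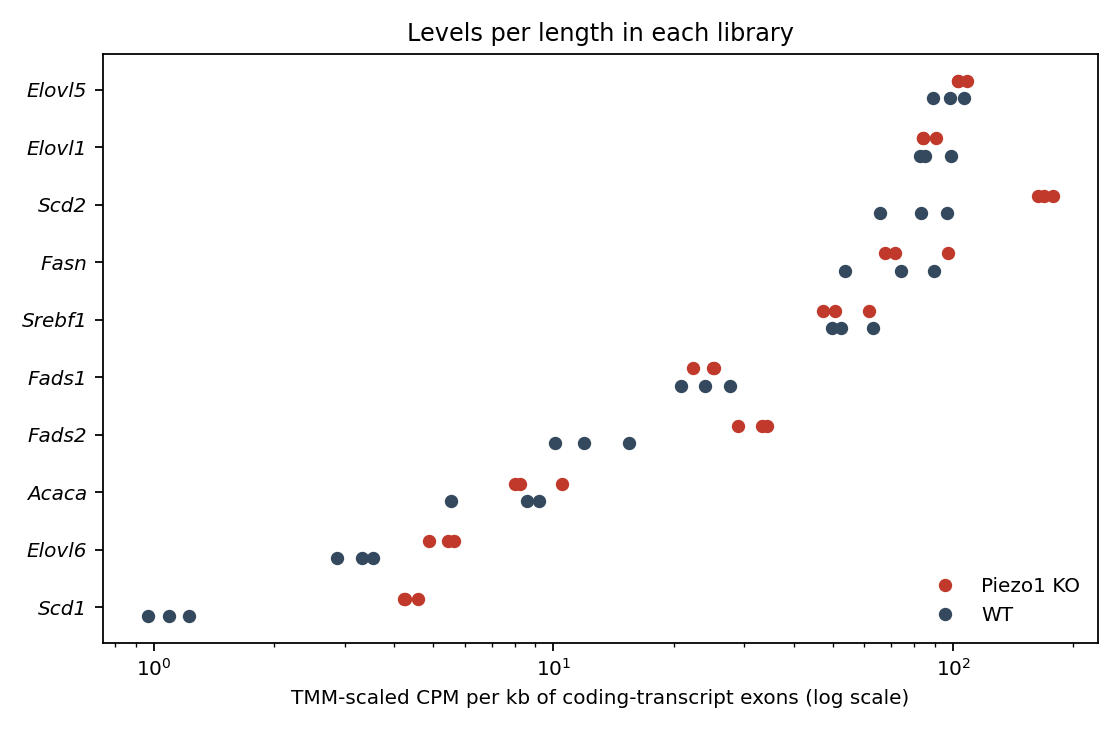
TMM-scaled CPM per kb of coding-transcript exons (horizontal axis, log scale) in each library, with Piezo1 KO drawn above WT for each gene. Scd2 in Piezo1 KO lies between 163 and 178, to the right of every other gene, and Scd1 lies lowest in both groups.

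The libraries of 1 group were not alike across the set. WT replicate 2 had the highest of the 3 WT values in 9 of the 10 genes and WT replicate 3 the lowest in 7 of the 10, and WT replicate 3 was also the shallowest library. Within Piezo1 KO, replicate 1 was highest in 5 genes and lowest in 4. By profile over the 6 libraries, the closest gene to Scd2 and to Scd1 was Fads2, at root mean square distances of 0.17 and 0.34 on the log2 scale, and the closest to Elovl6 was Acsl3, at 0.14. The closest to Fads1 was Mbtps1 and the closest to Srebf1 was Pgd, at 0.05 and 0.08. The 6 values of a profile come from the same 6 libraries for every gene, and these distances carry no test. Each profile was centred over all 6 libraries, so a distance also holds the difference between the groups. The 10 genes were chosen with that difference known, so nothing is read from the nearness of called genes to each other.

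**Figure D4:**
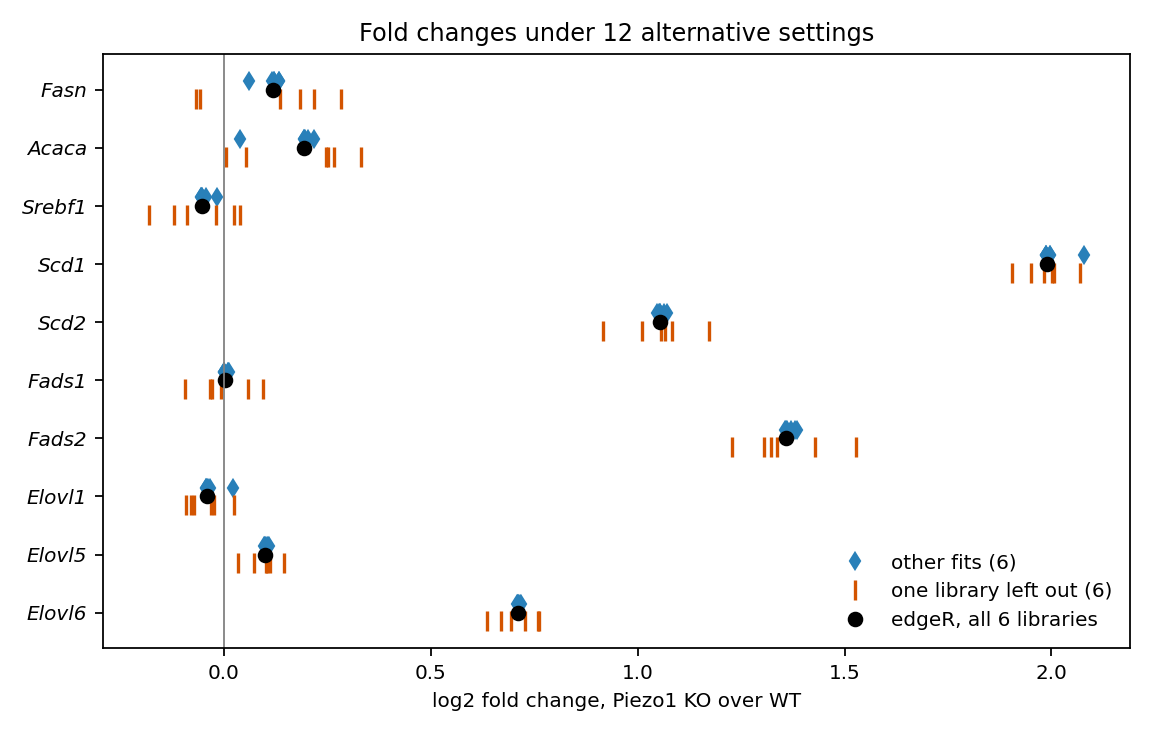
Log2 fold change, Piezo1 KO over WT (horizontal axis), of the 10 genes in the fit with all 6 libraries (black circle), in 6 other fits (diamonds) and in 6 fits with a library left out (bars). Scd1 lies between 1.91 and 2.08, Fads2 between 1.23 and 1.53, Scd2 between 0.92 and 1.17 and Elovl6 between 0.63 and 0.76, while Fasn, Srebf1, Fads1 and Elovl1 fall on both sides of 0.

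Start-site regions are shown for Fads2 and Elovl6, which were called, and for Fasn, which was not, since SREBP-1 is known to act on promoters of this pathway together with NF-Y and Sp1. RefSeq sequences (GRCm38.p6, the assembly of mm10) from 250 bases before to 50 after the start were found for 7 of the 10 genes and 10 starts. These RefSeq starts are not always the outermost starts of the GENCODE positions given for the genes. For Fasn the starts are the same, whereas the RefSeq start lies 31 bases downstream for Elovl6, 243 bases downstream for Fads2 and 65.8 kb downstream for Acaca, so nearly all of the Fads2 window is downstream of the outermost GENCODE start. Searched on both strands were the sterol regulatory element TCACNCCAC, the E-box CACGTG, the CCAAT box CCAAT and the GC box GGGCGG; letters in capitals mark any match. They run 5′ to 3′ along the gene's strand.
Fads2, chr19:10101454-10101753, minus strand: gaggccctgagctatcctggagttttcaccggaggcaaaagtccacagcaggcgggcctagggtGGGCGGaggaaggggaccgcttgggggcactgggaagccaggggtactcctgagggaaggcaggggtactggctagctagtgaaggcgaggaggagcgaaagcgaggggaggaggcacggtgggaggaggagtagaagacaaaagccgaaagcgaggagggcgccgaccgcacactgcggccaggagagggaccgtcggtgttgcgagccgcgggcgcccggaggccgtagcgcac
Elovl6, chr3:129532136-129532435, plus strand: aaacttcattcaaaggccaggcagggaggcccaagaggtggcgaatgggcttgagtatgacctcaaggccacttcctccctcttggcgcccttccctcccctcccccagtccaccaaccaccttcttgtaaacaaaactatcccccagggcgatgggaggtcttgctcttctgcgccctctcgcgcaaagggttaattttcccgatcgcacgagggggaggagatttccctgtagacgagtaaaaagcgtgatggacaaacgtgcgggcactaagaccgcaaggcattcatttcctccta
Fasn, chr11:120824498-120824797, minus strand: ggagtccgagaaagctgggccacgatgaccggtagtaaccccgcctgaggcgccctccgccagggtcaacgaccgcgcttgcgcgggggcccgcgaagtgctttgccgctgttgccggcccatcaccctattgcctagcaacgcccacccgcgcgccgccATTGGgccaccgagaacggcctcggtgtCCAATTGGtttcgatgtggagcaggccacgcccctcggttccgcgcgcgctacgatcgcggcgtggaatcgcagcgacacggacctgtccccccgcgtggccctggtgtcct

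The Fasn window held 3 CCAAT boxes, a pair of which overlap in the run CCAATTGG, at positions -90, -62 and -59 from the RefSeq start. The Fads2 window held 1 GC box, at position -186, and no CCAAT box, and the Elovl6 window held none of the 4 motifs. Of 32851 mouse start windows of the same length, 37.4% hold the CCAAT box, 35.7% the GC box, 7.15% the E-box and 1.24% the sterol regulatory element as spelled here. The sterol regulatory element was found in none of the 10 windows, which says only that these letters are not in them. Elovl5 had an E-box and 2 CCAAT boxes, Acaca none of the motifs, the 2 Elovl1 windows 5 and 2 GC boxes with 1 CCAAT box in the first, and the 3 Srebf1 windows 0 to 3 GC boxes and 0 or 1 CCAAT box.

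The rest of the pathway was read from 6 lists of 87 genes that leave out these 10. Of the 74 tested, 2 rose, 1 fell and 71 did not pass (edgeR, adjusted over all genes tested, where 1% of all genes were called higher and 0.509% lower), and the median log2 fold change was 0.04, beside 0.02 for all genes. All 3 calls were lost with the replicate number as a block and without Piezo1 KO replicate 1, 2 or 3 or WT replicate 1, each leaving 0 called. Over all genes, 52 were called with the block and 35, 33, 53 and 34 in those fits without a library, against 214 in the main fit. Without WT replicate 2, 5 genes of the lists were called, with Dgat2 and Lpcat2 kept and Acsl3 lost. Without WT replicate 3, 5 were called, all 3 of the main calls among them. Over all genes, 297 were called without WT replicate 2 and 237 without WT replicate 3. For the counts by list that follow, an unadjusted p under 0.05 in edgeR was reached by 13.2% of all genes tested, and an adjusted p under 0.05 by 4.36% of genes in DESeq2 and 3.1% in limma-voom.

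The calls were all among the 23 tested genes of fatty acid activation and acyl transfer. Dgat2, which makes triglyceride from diacylglycerol, rose to 74.4, 77.1 and 69.5 CPM in Piezo1 KO, against 44.2, 48.9 and 51.7 CPM in WT (log2 fold change 0.61 ± 0.10, edgeR adjusted p = 0.0270). Acsl3, an acyl-CoA synthetase of the endoplasmic reticulum and lipid droplets, rose to 62.8, 65.6 and 61.9 CPM in Piezo1 KO, against 46.6, 42.3 and 43.0 CPM in WT (log2 fold change 0.53 ± 0.09, edgeR adjusted p = 0.0312). Lpcat2, which reacylates lysophospholipid and takes part in making platelet-activating factor, fell to 3.38, 3.14 and 2.82 CPM in Piezo1 KO, against 7.95, 7.83 and 7.95 CPM in WT (log2 fold change -1.34 ± 0.19, edgeR adjusted p = 0.0172). None of the 3 overlapped between groups. Lpcat3, which puts polyunsaturated chains into phospholipid, had a log2 fold change of 0.39 ± 0.08 and did not pass in edgeR (adjusted p = 0.0757), but passed in DESeq2 (0.000783), in limma-voom (0.0212) and with the stricter filter (edgeR, 0.0478). Dgat1, another enzyme of triglyceride synthesis, had 0.42 ± 0.10 and did not pass in edgeR (adjusted p = 0.105), but passed in DESeq2 (0.00596), in limma-voom (0.0235) and without WT replicate 2 (edgeR, 0.0467). Over the whole list, 8 genes were at an unadjusted p under 0.05 in edgeR (5 higher and 3 lower), 6 passed in DESeq2 (5 higher and 1 lower) and 5 in limma-voom (4 higher and 1 lower). The list's median log2 fold change was 0.00, with 12 genes positive and 11 negative.

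In the desaturation list, 0 of 7 tested genes passed in edgeR, with 2 at an unadjusted p under 0.05 (13.2% of all genes), 2 in DESeq2 and 1 in limma-voom, and the median was 0.11. Those 2 were Cyb5a and Cyb5b, cytochrome b5 proteins, of which the microsomal form passes electrons to the desaturases. Cyb5a was at 309.6, 392.3 and 360.2 CPM in Piezo1 KO, against 231, 230.0 and 255 CPM in WT, a log2 fold change of 0.57 ± 0.11 just outside the threshold (adjusted p = 0.0511, edgeR). It passed in 5 of 12 alternative fits, DESeq2 and limma-voom among them. Cyb5b had 0.29 ± 0.08 (adjusted p = 0.152, edgeR) and passed in DESeq2.

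In the elongation cycle list, 0 of 8 tested genes passed in edgeR, with 2 at an unadjusted p under 0.05 (13.2% of all genes) and 0 in DESeq2 and in limma-voom. Its median log2 fold change of 0.28 was the highest of the 6 lists, with 7 genes positive. That median leans on genes near the floor. Elovl4, Elovl7, Hacd1 and Hacd4, at group means of 0.45 to 2.91 CPM, had 0.71, 0.23, 0.91 and 0.82. The more abundant Tecr, Hacd2 and Hacd3 had 0.06, 0.05 and -0.13. Hsd17b12, the ketoacyl-CoA reductase and so one of the reductases of each elongation round, was at 135, 151 and 153 CPM in Piezo1 KO, against 115, 129 and 105 CPM in WT (log2 fold change 0.33 ± 0.11, adjusted p = 0.221). Hacd1, a dehydratase of the cycle, had 0.91 ± 0.35 at 1.28 to 3.84 CPM over the 6 libraries (adjusted p = 0.306).

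Of the 8 genes that supply acetyl-CoA and NADPH, 0 passed in edgeR, with 4 at an unadjusted p under 0.05 (13.2% of all genes) and 0 in DESeq2 and in limma-voom, and the median was 0.18. Acly, ATP citrate lyase, was at 750.0, 692 and 715 CPM in Piezo1 KO, against 568, 678 and 442 CPM in WT, without overlap and without passing (log2 fold change 0.35 ± 0.15, adjusted p = 0.356). Me1, the cytosolic malic enzyme, had 0.40 ± 0.12 (adjusted p = 0.209) and G6pdx, which opens the pentose phosphate pathway, -0.29 ± 0.09 (adjusted p = 0.210). Of the 7 tested partners of fatty acid synthase, 0 passed in edgeR, with 1 at an unadjusted p under 0.05 and 0 in DESeq2 and in limma-voom, and the median was 0.02. Acacb, the mitochondrial carboxylase form, was low, at 2.24, 2.04 and 2.05 CPM in Piezo1 KO, against 1.56, 1.31 and 1.35 CPM in WT, without overlap and without passing (log2 fold change 0.58 ± 0.29, edgeR adjusted p = 0.450). Cbr4, a mitochondrial reductase, had 0.47 ± 0.15 on the log2 scale (adjusted p = 0.221).

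Of 21 tested genes of SREBP and LXR regulation, 0 passed in edgeR, 2 in DESeq2 and 2 in limma-voom, and the median was -0.04. In edgeR, 6 were at an unadjusted p under 0.05 (3 higher and 3 lower, beside 13.2% of all genes). The 3 lower were the receptor genes Nr1h2, Rxra and Rxrb, at -0.38 ± 0.11, -0.53 ± 0.18 and -0.32 ± 0.10. Each was without overlap and did not pass (edgeR adjusted p = 0.172, 0.240 and 0.225). Insig1, which retains SREBP and is itself a known SREBP target, was at 275, 274 and 266 CPM in Piezo1 KO, against 168, 229 and 157 CPM in WT. The groups did not overlap, and the log2 fold change of 0.55 ± 0.14 did not pass (adjusted p = 0.131, edgeR); it passed in DESeq2, in limma-voom and without WT replicate 2. Prkag2, a subunit of the kinase AMPK that inhibits acetyl-CoA carboxylase, had 0.55 ± 0.15 (adjusted p = 0.138, edgeR) and passed in DESeq2, in limma-voom and without WT replicate 3. Scap, the escort of SREBP, had -0.19 ± 0.11 (adjusted p = 0.537) and Srebf2, the gene of the sterol-directed SREBP-2, -0.04 ± 0.11 (adjusted p = 0.925), both with overlapping groups.

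**Figure D5:**
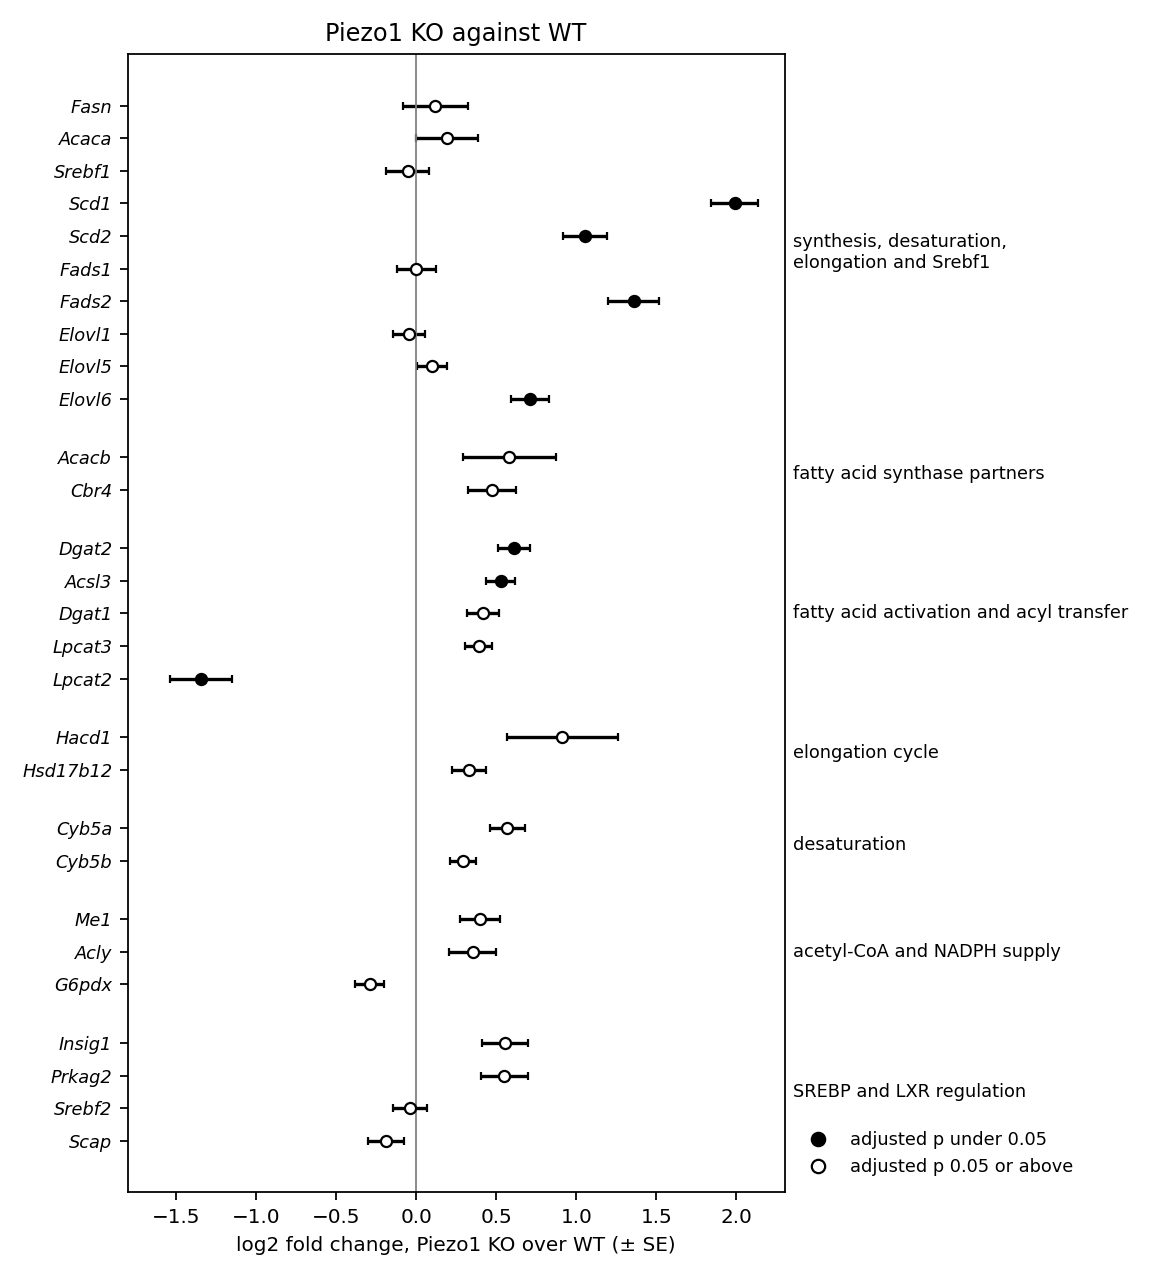
Log2 fold change, Piezo1 KO over WT (horizontal axis), ± SE from the edgeR fit. Drawn are the 10 genes (top) and the tested genes of the 6 other lists picked by the naming rule. Symbols are filled where the adjusted p over all genes was under 0.05. Scd1, Fads2, Scd2, Elovl6, Dgat2 and Acsl3 are filled on the right and Lpcat2 on the left.

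Some cells of the lung make these enzymes at high levels, so their markers were read in the same libraries. Of 9 alveolar type II cell markers, 4 were in the table, with a summed level of 36.6 to 40.7 CPM in Piezo1 KO and 32.2 to 35.1 CPM in WT, mostly from Abca3, Epcam and Napsa, each of which overlapped between the groups. Of 11 alveolar macrophage markers, 6 were in the table, with 7.57 to 13.3 CPM in Piezo1 KO and 10.2 to 14.99 CPM in WT. None of 7 adipocyte markers was among the genes analysed here. Of 6 B cell markers 2 were in the table, with 22.3 to 26.5 CPM in Piezo1 KO and 16.6 to 18.8 CPM in WT. Nearly all of that sum was Cd79b, at means of 23.9 CPM in Piezo1 KO and 17.9 CPM in WT. Of 8 T cell markers 4 were in the table, with 19.9 to 26.2 CPM in Piezo1 KO and 27.2 to 35.5 CPM in WT. Most of that sum was Cd3g, which overlapped between the groups. Of the rarer T cell markers, Cd3e was lower and Cd3d higher without overlap, while Trac overlapped. Of 11 granulocyte and mast cell markers 3 were in the table, with 3.93 to 5.15 CPM in Piezo1 KO and 8.12 to 12.1 CPM in WT, Cma1 being called lower. Of 10 fibroblast and endothelial markers 1 was in the table, Col1a1, at 0 to 0.34 CPM. Several of these sums did not overlap between the groups, and their part in the fatty acid gene values was not tested. In bulk RNA, fewer cells of a type and less RNA per cell cannot be told apart.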

How the data were processed

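RNA was sequenced from 6 libraries of sorted mouse lung ILC2s. The values the authors deposited are estimated counts for each gene, unscaled between libraries. Per the submitters' processing notes, mm10 was the build; the sources used here do not give the aligner, counter or annotation. Libraries are rows, matched by sample description; groups and replicate numbers come from the titles.

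Counts were rounded to whole numbers. Genes kept by filterByExpr (14149 of 18057) were TMM-scaled and tested with glmQLFTest in edgeR 4.0.16 (R 4.3.3), two-sided, without covariates. Adjustment was by Benjamini-Hochberg over all genes, with a threshold of 0.05. In simulated data, the fit recovered 26% of 50 genes changed 1.5-fold, 50% at 2-fold, 78% at 3-fold and 94% at 4-fold. Of 131 simulated calls, 7 were false. A gene that did not pass is therefore not shown to be unchanged. SE is the absolute log2 fold change over the square root of F. Alternatives were RLE scaling, no filter, a stricter filter (1 CPM in every library of either group), a block for replicate number, DESeq2 1.42.0, limma-voom (limma 3.58.1) with sample quality weights and leaving out each library. Exon lengths and positions are from GENCODE M21 (GRCm38, mm10). No replicate pair agreed within sampling noise (chi-square per gene 10.9 or more, 1 being noise alone). Totals of 13059046 or more counts put at least 71 counts behind each value of the 10 genes.

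The 10 genes and the lists were chosen with earlier results of these data known. By the naming rule, the text names from each list up to 5 genes past the threshold and the 2 with the smallest p that did not pass. Insig1, Scap, Srebf2, Acly, Scd3 and Scd4 are named whatever their values. Outside the rule, further genes of the elongation cycle list and of the SREBP and LXR list are named to show low levels or the other direction.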

Additional observations from a re-analysis of the deposited data

How the results depend on the processing

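All 4 called genes kept their direction in all 12 alternatives, and Scd1 also its call. The number of the 10 genes called was 1 to 4 with a library left out and 3 with the replicate block. Among other pathway genes, where 3 were called, 5 were with the stricter filter, 0 with the replicate block, 10 in DESeq2, 8 in limma-voom and 0 to 5 with a library left out. Over all genes, where 214 were called, 52 were with the replicate block (37 higher and 15 lower), 593 in DESeq2, 439 in limma-voom and 33 to 297 with a library left out. Deviations of same-numbered libraries had correlations over genes of -0.02, -0.18 and -0.01, and those of differently numbered libraries lay between -0.18 and 0.21. Each deviation was taken from the mean of only 3 libraries, so these values cannot tell whether the number pairs the libraries.

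Of 120 fold changes of the 10 genes under alternatives, 10 changed sign, all in genes with a log2 fold change near 0. With a library left out, Fads1 lay between -0.094 and 0.095, Elovl1 between -0.093 and 0.024, Fasn between -0.068 and 0.28 and Srebf1 between -0.18 and 0.038. Srebf2, from the other lists, lay between -0.12 and 0.035. Elovl1 was also above 0 in limma-voom, at 0.022. The cause was not tested.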
